A study of Homo sapiens with 9 samples.

Results

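The core autophagy machinery comprised 35 genes chosen by symbol, from the kinase complex that starts autophagy to the ubiquitin-like proteins that coat the autophagosome, together with the transcription factors TFEB and TFE3 and the cargo receptors OPTN and NBR1. All 35 were among the 60683 genes listed and among the 22672 genes tested. They were followed in Hep3B, a line from a human liver cancer, with 3 groups of 3 cultures held for 24 hours: vehicle (DMSO) at 20% O2, vehicle at 1% O2, and the hypoxia-inducible factor (HIF) inhibitor 32-134D at 1% O2. All groups used the same line and carried no genetic alteration named in the labels, and no library combined 32-134D with 20% O2. The dose of 32-134D is stated in the paper but not in the labels. The comparison of vehicle at 1% with vehicle at 20% O2 addresses the response to hypoxia. That of 32-134D with vehicle, both at 1% O2, addresses how 32-134D changed RNA levels in hypoxia. A further comparison, of 32-134D at 1% O2 with vehicle at 20% O2, addresses how much of the response remained with 32-134D. Effects of 32-134D that do not depend on hypoxia cannot be separated in either comparison that includes it.

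In autophagy a cup-shaped membrane, the phagophore, grows around cytoplasm, closes into an autophagosome and fuses with a lysosome, where the content is degraded. The ULK kinase complex and the class III PI3-kinase complex start the membrane, ATG9A, ATG2 and WIPI proteins supply and mark its lipids, and a pair of conjugation cascades attaches ATG8 proteins (LC3 and GABARAP families) to phosphatidylethanolamine. In hypoxic cells HIF is known to induce the mitophagy receptors BNIP3 and BNIP3L, and much of the control of the core proteins is exerted on the proteins themselves, which RNA counts do not measure.

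The libraries held 6013980 to 40549699 counts. The summed hepatocyte list lay at 11700 to 19800 CPM (counts scaled to a common library size), with ALB at 5950 to 10200 CPM in every library. APOB went from 3260 to 5260 CPM with vehicle at 20% O2 to 377 to 423 CPM with vehicle at 1% O2, and within the 32-134D group TTR ranged from 9.79 to 37.9, FGB from 6.86 to 33.5 and TF from 584 to 1550 CPM. In contrast, the leukocyte marker CD3E and the endothelial marker VWF had no count, PTPRC had at most 3 counts, CDH5 at most 1 and COL3A1 at most 2. Other leukocyte, endothelial and fibroblast markers were detected, with up to 112 counts for CD14, 26 for CD68, 28 for PECAM1 and 227 for COL1A1. The summed leukocyte, endothelial and fibroblast lists lay at 1.37 to 4.37, 0.0943 to 1.28 and 13.1 to 35.8 CPM, and the last was mostly PDGFRB. CA9, a HIF target, lay at 26.8 to 29 CPM with vehicle at 20% O2, at 511 to 631 CPM with vehicle at 1% O2 and at 50.6 to 62.0 CPM with 32-134D. In the 32-134D group replicate 3 stood apart as a library: the chi-square of counts over genes, divided by its degrees of freedom, was 40.5 and 36.2 against replicates 1 and 2, and 2.08 between those. Without it 17 of the 35 autophagy genes were called lower and 1 higher with 32-134D, and 3 higher and 1 lower against vehicle at 20% O2. In both vehicle groups replicate 1 differed most from the others, by smaller values. At 20% O2 these were 6.72 and 13.3 against replicates 2 and 3, and 1.64 between those. At 1% O2 they were 8.63 and 13 against replicates 2 and 3, and 2.6 between those.

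Hypoxia raised most of the machinery, and 32-134D lowered a large share of it, with ATG16L2 moving the opposite way in both comparisons. A gene was called when edgeR's quasi-likelihood test gave a Benjamini-Hochberg false discovery rate (FDR) below 0.05 over all genes tested and the fold change exceeded 1.5. In hypoxia 19 of the 35 genes (54.3%) were called higher, 1 was called lower and 15 were not called, whereas 19.5% of all tested genes were called higher and 20.3% lower, 39.7% in all. With 32-134D at 1% O2, 16 of the 35 genes (45.7%) were called lower and 1 higher, beside 13.7% of all tested genes lower and 16.2% higher, 29.9% in all. Among the 13887 genes whose mean level lay within the range of the 35, 26.2% were called higher and 23.8% lower in hypoxia, and 18.6% lower and 19.3% higher with 32-134D. The vehicle libraries at 1% O2 enter both comparisons, which are therefore not independent of each other.

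The median log2 fold change of the 35 genes was 0.76 in hypoxia and -0.52 with 32-134D, beside 0.000997 and -0.01 over all tested genes. In hypoxia 26 of the 35 (74.3%) had every vehicle library at 1% O2 above every vehicle library at 20% O2, as did 32.3% of all tested genes. With 32-134D the 3 libraries lay below all 3 vehicle libraries at 1% O2 for 26 genes (74.3%), and 30.8% of all tested genes did so. The reverse order held in hypoxia for 4 members (11.4%), beside 28.1% of all tested genes. With 32-134D it held for 3 members (8.57%), beside 25.4%. When libraries were scaled by their total counts alone, the median of all genes moved to -0.21 in hypoxia and to 0.17 with 32-134D. The genes called higher then made up 34.5% of all calls in hypoxia instead of 49.0%, and 72.0% with 32-134D instead of 54.2%. Under that scaling 17 members were called higher and 3 lower in hypoxia, and 11 lower and 2 higher with 32-134D, and the distance of the members' median from that of all genes stayed at 0.75 and -0.51. Counts are relative to the RNA of each library, and fewer cells and less RNA per cell cannot be told apart in them.

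**Figure D1:**
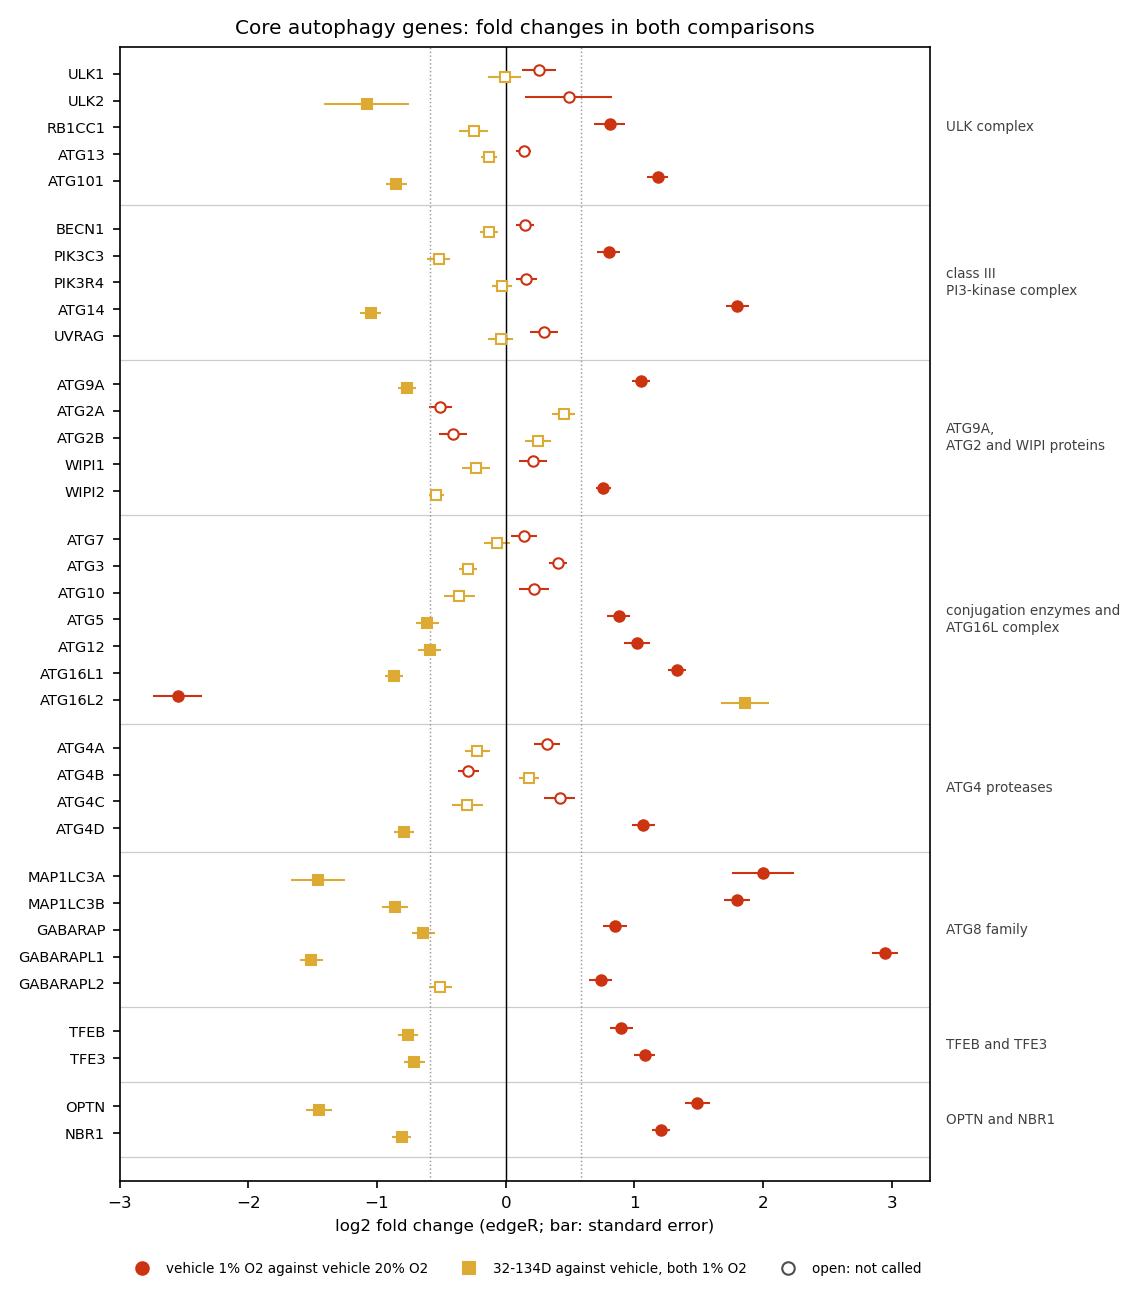
Log2 fold change (x axis) of each of the 35 genes (y axis, grouped by role) for vehicle at 1% against vehicle at 20% O2 (circles) and for 32-134D against vehicle at 1% O2 (squares), with standard errors as bars. Filled symbols are called, dotted lines mark the 1.5-fold threshold, and ATG16L2 lies on the opposite side from the other called genes in both comparisons (-2.55 and 1.86).

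Against vehicle at 20% O2, the cells given 32-134D at 1% O2 differed past both thresholds in 4 members. ATG14, MAP1LC3B and GABARAPL1 were called higher and ATG16L2 lower, while 31 genes were not called, of which 8 passed the FDR but not the fold threshold. Over all tested genes 3.0% were called higher and 0.516% lower in this comparison, 3.52% in all, and among genes within the members' range of levels 4.34% and 0.771%. For 18 of the 35 (51.4%) every 32-134D library lay above every vehicle library at 20% O2, as for 17% of all tested genes. For 2 (5.71%) every 32-134D library lay below, as for 12.8% of all tested genes. The median log2 fold change of the 35 was 0.22, beside -0.00282 over all genes.

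The levels differed more between the genes than between the groups. Per kilobase of exon (FPKM), WIPI2 had the highest level with vehicle at 20% O2, at 21.5 ± 0.91 FPKM (SD, n = 3), followed by ATG13 at 19.7 ± 0.448, ULK1 at 18.6 ± 1.45 and GABARAP at 18.2 ± 2.16 FPKM, whose spreads overlapped from ATG13 downward. With vehicle at 1% O2 ATG101 (39.5 ± 2.54 FPKM) and NBR1 (38.9 ± 0.427 FPKM) came first and did not differ beyond their spread. ULK2, at 0.0718 ± 0.0117 FPKM, ATG16L2 and MAP1LC3A were the lowest with vehicle at 20% O2, so that their fold changes rest on few counts.

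The promoters were searched for the letters that HIF and TFEB are known to bind, because these genes moved together. Windows from 250 bases before to 50 bases after the RefSeq start (GRCh38.p14) were at hand for 31 of the 35 genes. Either core of the hypoxia-response element, ACGTG or GCGTG on either strand, was in the window of 22 of the 31 genes (71.0%), and in 52.4% of all 27305 genes with windows. It was present in 12 of the 16 genes with windows that were called higher in hypoxia, in 10 of the 14 that were not called, and not in the 1 called lower. CACGTGAC, the core of the element bound by TFEB and TFE3, which itself contains ACGTG, was in the windows of ATG14 and ATG3 alone among the members (6.45%), and in 2.93% of all genes. The stretches shown are those of ATG14, with the largest change of the kinase complexes, and of ATG3, which shares the element but was not called, and then of an ATG8 gene with both cores and of GABARAPL1, which had the largest increase and neither core in its window. Capitals mark the searched letters on either strand, all stretches are read 5′ to 3′ on the strand of the gene, and a match describes the letters only.
ATG14, chr14:55411831-55411930, minus strand: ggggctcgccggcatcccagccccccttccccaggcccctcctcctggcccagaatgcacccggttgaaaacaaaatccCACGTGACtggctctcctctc
ATG3, chr3:112561973-112562002, minus strand: cagcccggcccctttctCACGTCACGTGcc
GABARAPL2, chr16:75566249-75566348, plus strand: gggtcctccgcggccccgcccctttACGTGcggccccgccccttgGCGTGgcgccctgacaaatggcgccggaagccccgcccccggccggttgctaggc
GABARAPL1, chr12:10212754-10212803, plus strand: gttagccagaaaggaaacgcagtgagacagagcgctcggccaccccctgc

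In the ULK complex, which phosphorylates the first proteins at the phagophore, RB1CC1 and ATG101 rose in hypoxia and ULK1, ULK2 and ATG13 were not called. ATG101, the subunit that binds and stabilises ATG13, stood at 61.4, 53.9 and 52.6 CPM with vehicle at 20% O2, at 122, 136 and 122 CPM with vehicle at 1% O2, and at 72.3, 71.3 and 66.2 CPM with 32-134D. The groups did not overlap, and the log2 fold change was 1.18 (SE 0.08, edgeR FDR 1.77e-08) in hypoxia and -0.85 (SE 0.08, FDR 7.01e-07) with 32-134D. RB1CC1, the scaffold also known as FIP200, rose by a log2 fold change of 0.81 (SE 0.12, edgeR FDR 3.19e-05) in hypoxia. With 32-134D it lay at 79.5, 82.7 and 115 CPM, where replicate 3 reached the highest vehicle library at 1% O2, and it was not called (-0.25, SE 0.11, edgeR FDR 0.082). Against vehicle at 20% O2 its value of 0.56 was under the fold threshold, and it was called without 32-134D replicate 1 (0.66) or 2 (0.63), vehicle 1% O2 replicate 3 (0.61) or vehicle 20% O2 replicate 1 (0.59).

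ULK1, the kinase itself, showed the same replicate apart from its group. It was at 129, 149 and 146 CPM with vehicle at 20% O2, at 182, 168 and 158 CPM with vehicle at 1% O2, and at 142, 149 and 214 CPM with 32-134D. Its log2 fold change with 32-134D was -0.00921 (SE 0.13), and leaving out single libraries moved it between -0.22 and 0.16. ATG13, the adaptor of the complex, varied little, at 134 to 140, 148 to 154 and 135 to 142 CPM in the respective groups. ULK2, the second kinase, had 5 to 45 counts per library, and its call with 32-134D (-1.08, SE 0.33, edgeR FDR 0.0132) was lost without vehicle 1% O2 replicate 1 (-0.90) or replicate 3 (-0.94).

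In the class III PI3-kinase complex, which makes the phosphatidylinositol 3-phosphate of the phagophore, the responses of the subunits were unequal. ATG14, the subunit that directs the complex to autophagy, had 18.4, 19.9 and 21.0 CPM with vehicle at 20% O2, then 66.6, 68.0 and 72.2 CPM with vehicle at 1% O2 and 31.5, 34.7 and 33.8 CPM with 32-134D. The 3 groups were fully separated, with a 3.47-fold rise in hypoxia (log2 1.80, SE 0.09, edgeR FDR 4e-10) and a 2.07-fold fall with 32-134D (log2 -1.05, SE 0.08, FDR 1.06e-07). The cells with 32-134D remained 1.68-fold above vehicle at 20% O2 (log2 0.75, SE 0.09, edgeR FDR 6.19e-05). The ATG14 gene lies on the minus strand of chromosome 14, from 55366392 to 55411858 (GRCh38), and the end of its stretch printed above, which holds the capitals, falls in its annotated first exon.

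PIK3C3, the catalytic subunit, was also called higher in hypoxia (0.80, SE 0.09, edgeR FDR 2.49e-06), while its log2 fold change of -0.52 with 32-134D passed the FDR but not the fold threshold and was called without 32-134D replicate 3 (-0.59). BECN1, the regulatory subunit shared by both forms of the complex, hardly varied: it was at 66.3, 69.2 and 67.4 CPM with vehicle at 20% O2, at 73.7, 76.0 and 75.2 CPM with vehicle at 1% O2, and at 69.3, 66.3 and 70.6 CPM with 32-134D. PIK3R4, the regulatory kinase-like subunit, and UVRAG, which replaces ATG14 in the endosomal form of the complex, had log2 fold changes of 0.16 and 0.30 in hypoxia and of -0.03 and -0.04 with 32-134D. ATG14 moved by 1.80 in hypoxia where UVRAG, its alternative partner, moved by 0.30, though the difference between these subunits was not tested.

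Among the proteins that build and mark the membrane, ATG9A and WIPI2 rose in hypoxia and the ATG2 genes did not. ATG9A, a scramblase carried on vesicles that seed the phagophore, was at 62.9, 68.5 and 71.1 CPM with vehicle at 20% O2, at 138, 148 and 133 CPM with vehicle at 1% O2, and at 83.3, 82.2 and 79.0 CPM with 32-134D. Its log2 fold changes were 1.05 (SE 0.07, edgeR FDR 2.09e-08) and -0.77 (SE 0.07, FDR 7.13e-07). Of the 50-base stretches of the longest ATG9A transcript, 44.8% recur in AC068946.2. That gene covers 38.8% of the exonic bases of ATG9A on the same strand and had 55 counts, against 22936 for ATG9A. WIPI2, which binds phosphatidylinositol 3-phosphate and recruits ATG16L1, went from 186 to 202 CPM to 317 to 333 CPM in hypoxia (0.76, SE 0.06, edgeR FDR 1.5e-07) and to 219 to 227 CPM with 32-134D, where its -0.54 did not pass the fold threshold. Its hypoxia call was lost with scaling by total counts (0.54), and its 32-134D value was called with length and GC trends removed (-0.74).

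The lipid-transfer proteins ATG2A and ATG2B had negative log2 fold changes in hypoxia, of -0.51 (SE 0.09, edgeR FDR 0.000184) and -0.41 (SE 0.11, FDR 0.00444), which passed the FDR alone. ATG2A lay at 78.1 to 88.0 CPM with vehicle at 20% O2, at 55.4 to 63.8 CPM with vehicle at 1% O2, and at 75 to 90.3 CPM with 32-134D, so that its vehicle libraries at 1% O2 were below all others and the highest 32-134D value was that of replicate 3. It became called lower in hypoxia without vehicle 20% O2 replicate 1 (-0.62). WIPI1, the paralog of WIPI2, was not called (0.21 in hypoxia and -0.23 with 32-134D). The log2 ratio of WIPI1 to WIPI2 counts was -3.45 with vehicle at 20% O2 and -4.00 with vehicle at 1% O2, with no overlap between the libraries.

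The conjugation enzymes ATG7 and ATG3 and the E2-like ATG10 were not called, whereas ATG5, ATG12 and ATG16L1, whose products together form the ligase-like complex, all rose in hypoxia. ATG16L1, which places the complex on the membrane, was at 36.9, 39.1 and 37.1 CPM with vehicle at 20% O2, at 93.6, 94.7 and 94.8 CPM with vehicle at 1% O2, and at 49.8, 53.4 and 51.5 CPM with 32-134D. Replicates of each group lay close together, and the log2 fold change was 1.33 in hypoxia (SE 0.07, edgeR FDR 1.22e-09) and -0.87 with 32-134D (SE 0.07, FDR 1.32e-07). ATG12, the ubiquitin-like protein joined to ATG5, had log2 fold changes of 1.02 (SE 0.10) and -0.59 (SE 0.09), and ATG5 of 0.88 (SE 0.09) and -0.61 (SE 0.09). The calls of ATG12 and ATG5 with 32-134D lay at the fold threshold and were lost in 12 and 13 of 19 alternative settings, with values of -0.41 and -0.43 under scaling by total counts. The hypoxia call of ATG5 was lost with length and GC trends removed (0.57). Leaving out vehicle 20% O2 replicate 1, vehicle 1% O2 replicate 3 or 32-134D replicate 1 or 2 ended both calls (-0.54 to -0.56 for ATG12 and -0.55 to -0.57 for ATG5), as did vehicle 1% O2 replicate 1 for ATG12 (-0.58) and replicate 2 for ATG5 (-0.58).

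ATG16L2, a paralog of ATG16L1 whose function is less well defined, moved the opposite way. It had 4.37, 5.18 and 4.77 CPM with vehicle at 20% O2, 0.822, 0.801 and 0.795 CPM with vehicle at 1% O2, and 2.72, 3.16 and 2.97 CPM with 32-134D. These values rest on 33 to 157, 17 to 31 and 65 to 96 counts per library, and the groups did not overlap. ATG16L2 fell 5.84-fold in hypoxia (log2 -2.55, SE 0.19, edgeR FDR 3.97e-08) and rose 3.64-fold with 32-134D (log2 1.86, SE 0.19, FDR 1.62e-06). It remained below vehicle at 20% O2 (-0.68, SE 0.17, edgeR FDR 0.0186), a call lost without vehicle 20% O2 replicate 2 (-0.64) or replicate 3 (-0.68) or without 32-134D replicate 1 (-0.62). The log2 ratio of ATG16L1 to ATG16L2 counts, in which the scaling of a library cancels, was 2.97 ± 0.09 (SD, n = 3) with vehicle at 20% O2, 6.84 ± 0.03 with vehicle at 1% O2 and 4.12 ± 0.06 with 32-134D.

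Across 10 pairs of paralogs and 3 comparisons, 30 ratios were compared by two-sided exact permutation tests, for which 3 against 3 libraries allow no p below 0.1. The smallest p found after Benjamini-Hochberg adjustment was 0.158. ATG16L2 shares 7.9% of its exonic bases with FCHSD2 on the opposite strand, and whether counting used strand is not given in the sources used here. ATG10 likewise shares 6.9% of its bases with the ribosomal protein gene RPS23, which had 71547 counts against 2719 for ATG10, and ATG7 shares 18.1% with VGLL4, so that reads of these partners cannot be told apart without strand.

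**Figure D2:**
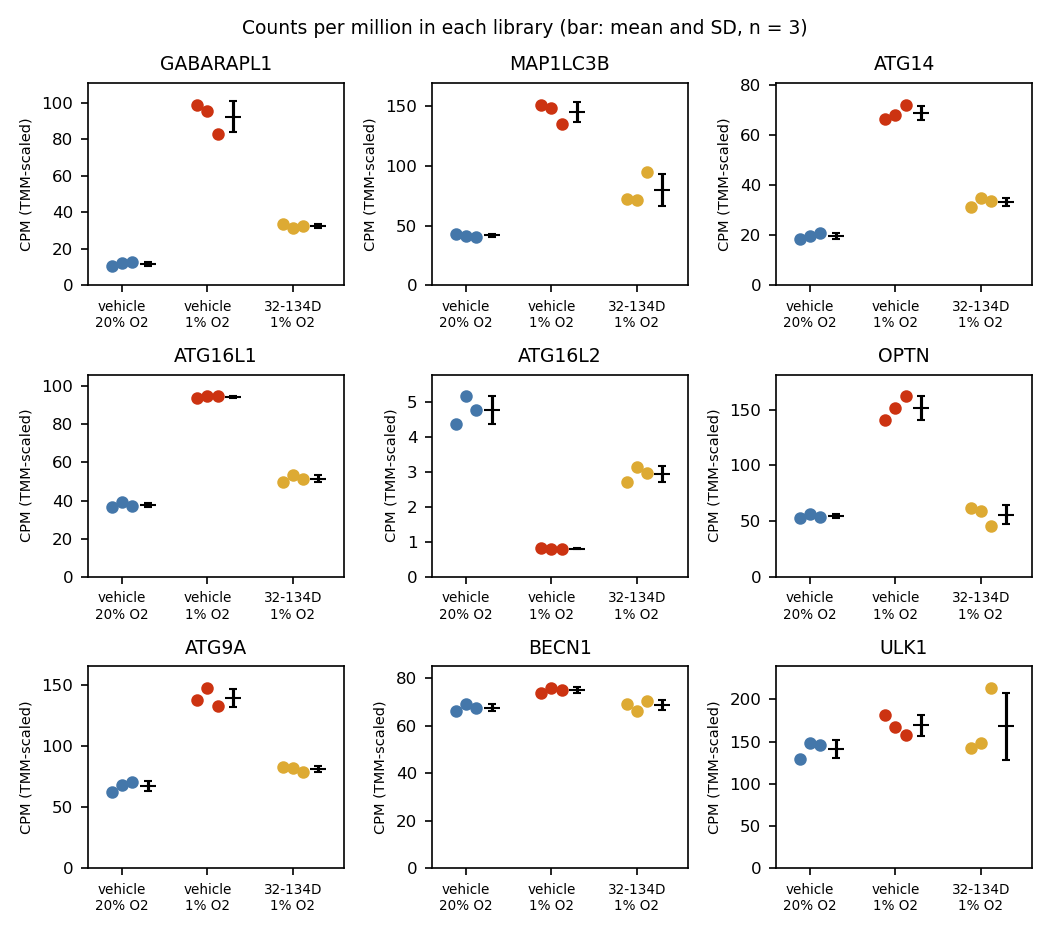
TMM-scaled CPM (y axis) of 9 members in each of the 3 libraries per group (points), with mean and SD. The vehicle libraries at 1% O2 lie above all others for GABARAPL1, MAP1LC3B, ATG14, ATG16L1, OPTN and ATG9A and below all others for ATG16L2, and replicate 3 of the 32-134D group stands apart for ULK1 (214 CPM).

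Of the ATG4 proteases, which prime ATG8 proteins and release them from membranes, ATG4D alone was called. ATG4D was at 42.5, 40.8 and 35.2 CPM with vehicle at 20% O2, at 79.7, 87.1 and 81.1 CPM with vehicle at 1% O2, and at 49.2, 49.3 and 44.7 CPM with 32-134D. That is a log2 fold change of 1.07 (SE 0.09, edgeR FDR 8.63e-08) in hypoxia and of -0.79 (SE 0.08, FDR 2.56e-06) with 32-134D. ATG4B, the protease with the broadest activity and the most counts of the 4, had 0.82 times its level at 20% O2 in hypoxia (-0.29, SE 0.08, edgeR FDR 0.00918). ATG4A and ATG4C had log2 fold changes of 0.32 and 0.42 in hypoxia, both past the FDR alone, and the log2 ratio of ATG4C to ATG4D went from -2.56 to -3.21 without overlap. ATG4D shares 15% of its exonic bases with KRI1 on the opposite strand.

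All 5 ATG8 genes among the 35 were called higher in hypoxia and 4 of them lower with 32-134D. GABARAPL1 showed the largest rise of the 35 genes: it stood at 10.7, 12.2 and 12.7 CPM with vehicle at 20% O2, at 98.9, 95.2 and 82.9 CPM with vehicle at 1% O2, and at 33.5, 31.3 and 32.5 CPM with 32-134D. It rose 7.75-fold in hypoxia (log2 2.95, SE 0.10, edgeR FDR 1.55e-11) and fell 2.84-fold with 32-134D (log2 -1.51, SE 0.09, FDR 9.2e-09). The cells with 32-134D kept 2.72 times the level of vehicle at 20% O2 (log2 1.45, SE 0.10, edgeR FDR 4.01e-07). GABARAPL1 lies on chromosome 12 from 10212458 to 10223130 (GRCh38, plus strand), and the stretch printed above lies between its annotated first exons.

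MAP1LC3B, the LC3 gene most used to follow autophagosomes, was at 43.2, 41.1 and 40.7 CPM with vehicle at 20% O2, at 151, 148 and 135 CPM with vehicle at 1% O2, and at 72.4, 71.5 and 94.7 CPM with 32-134D. The groups were separated, with replicate 3 of the 32-134D group above its fellows. The log2 fold change was 1.80 (SE 0.10, edgeR FDR 2.69e-09) in hypoxia, -0.86 (SE 0.10, FDR 4.86e-06) with 32-134D, and 0.93 (SE 0.10, FDR 4.68e-05) for 32-134D against vehicle at 20% O2. MAP1LC3A, a further LC3 gene, was scarce, with 9 to 31 counts per library with vehicle at 20% O2 and 92 to 185 with vehicle at 1% O2. It rose 4.0-fold in hypoxia (log2 2.0, SE 0.24, edgeR FDR 5.08e-06) and fell 2.75-fold with 32-134D (log2 -1.46, SE 0.21, FDR 3.52e-05).

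Within the GABARAP family, which acts later in autophagosome formation, GABARAP and GABARAPL2 moved less than GABARAPL1. GABARAP had 46.8, 37.5 and 39.3 CPM with vehicle at 20% O2, 71.4, 77.7 and 73.8 CPM with vehicle at 1% O2, and 46.4, 45.1 and 51.5 CPM with 32-134D. Its call with 32-134D (-0.64, SE 0.09, edgeR FDR 3.11e-05) was lost in 11 of 19 alternative settings, among them leaving out vehicle 20% O2 replicate 1 (-0.58), vehicle 1% O2 replicate 3 (-0.58) or 32-134D replicate 1 (-0.56), and after trends over length and GC content were removed its hypoxia value was 0.57, under the fold threshold. GABARAPL2 rose by 0.74 (SE 0.09, edgeR FDR 7.19e-06) on the log2 scale in hypoxia and had -0.51 (SE 0.09, FDR 0.00024) with 32-134D, which missed the fold threshold. Its rise was not called with those trends removed (0.36) or with scaling by total counts (0.52). By sequence, 42.0% of the 50-base stretches of the longest GABARAP transcript recur in other genes, and 6.88% of those of MAP1LC3B recur in MAP1LC3B2. Chief among the former is the read-through gene AC120057.2, which had no counts and covers 30.5% of the exonic bases of GABARAP on the same strand. How reads in exons shared between genes were assigned is not given in the sources used here. If they were left uncounted, the levels of GABARAP and ATG9A and the family share of GABARAP would be understated.

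The make-up of the ATG8 genes among the members differed between the groups, and LC3 genes outside the members were not counted. Summed per kilobase, the ATG8 genes amounted to 36.7 ± 2.86 FPKM (SD, n = 3) with vehicle at 20% O2, 97.0 ± 3.47 FPKM with vehicle at 1% O2 and 53.2 ± 4.05 FPKM with 32-134D. GABARAP made up 49.5 ± 2.0% of that sum with vehicle at 20% O2, 33.8 ± 1.6% with vehicle at 1% O2 and 39.6 ± 0.263% with 32-134D. GABARAPL1 went the other way, from 7.99 ± 1.25% to 23.3 ± 1.4% and then 15 ± 1.06%, and its libraries did not overlap between any groups. MAP1LC3B made up 21.4 ± 1.01%, 28.1 ± 0.79% and 28.0 ± 2.49%, so that its share with 32-134D did not differ from that with vehicle at 1% O2 beyond the spread. The log2 ratio of GABARAPL1 to GABARAP counts was -1.79, 0.31 and -0.55 in the respective groups.

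**Figure D3:**
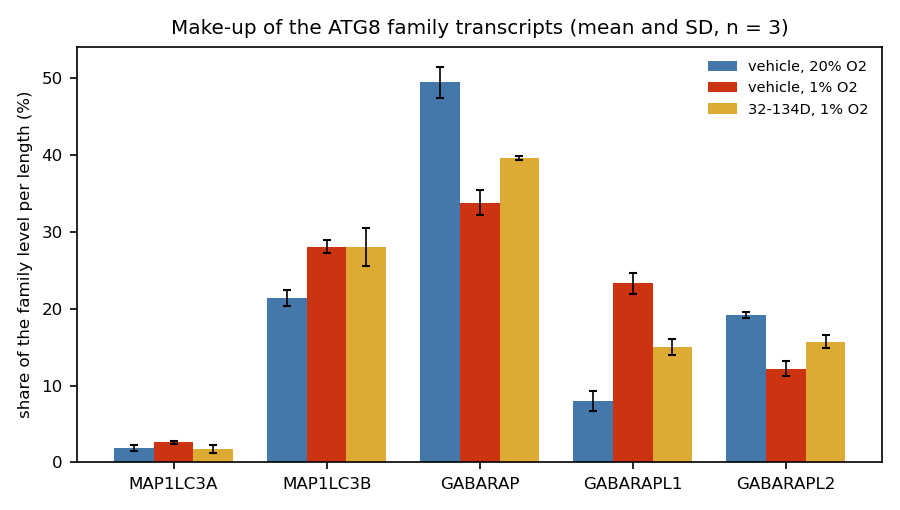
Share of each ATG8 gene among the members in their summed level per kilobase (y axis, percent, starting at 0) in the 3 groups. Bars are means and whiskers SD (n = 3). GABARAPL1 made up 7.99% with vehicle at 20% O2, 23.3% with vehicle at 1% O2 and 15% with 32-134D, while GABARAP went from 49.5% to 33.8% and 39.6%.

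TFEB and TFE3, transcription factors that switch on autophagy and lysosome genes when they enter the nucleus, both rose in hypoxia and fell with 32-134D. TFE3 was at 32.6, 37.4 and 36.2 CPM with vehicle at 20% O2, at 78.6, 72.1 and 72.8 CPM with vehicle at 1% O2, and at 45.8, 46.0 and 45.0 CPM with 32-134D. Its log2 fold changes were 1.08 (SE 0.08, edgeR FDR 2.65e-08) and -0.71 (SE 0.08, FDR 2.4e-06). TFEB had 55.3 to 59.2, 96.8 to 115 and 57.3 to 66.8 CPM, with log2 fold changes of 0.90 (SE 0.09, edgeR FDR 4.89e-07) and -0.76 (SE 0.08, FDR 3.63e-06). With scaling by total counts the 32-134D calls of TFEB (-0.57) and TFE3 (-0.52) were lost, and that of TFE3 also after thinning all libraries to the smallest (-0.47). Where the factors reside in the cell is not measured by these counts.

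OPTN and NBR1, receptors that bind ubiquitinated cargo and ATG8 proteins, rose in hypoxia and fell with 32-134D, and the level of OPTN with 32-134D did not differ from that with vehicle at 20% O2 beyond its error. OPTN stood at 52.9, 56.2 and 53.5 CPM with vehicle at 20% O2, at 141, 151 and 162 CPM with vehicle at 1% O2, and at 61.9, 58.7 and 45.8 CPM with 32-134D. It rose 2.80-fold in hypoxia (log2 1.49, SE 0.10, edgeR FDR 1.45e-08) and fell 2.73-fold with 32-134D (log2 -1.45, SE 0.10, FDR 4.23e-08). Its log2 difference between 32-134D and vehicle at 20% O2 was 0.04 (SE 0.10, edgeR FDR 0.864), and 0.16 without 32-134D replicate 3, the lowest OPTN library of its group. NBR1 went from 138, 144 and 142 CPM to 327, 330 and 323 CPM in hypoxia and to 185, 177 and 198 CPM with 32-134D, with log2 fold changes of 1.21 (SE 0.07, edgeR FDR 1.73e-09) and -0.81 (SE 0.07, FDR 2e-07).

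Beside the core genes, 105 of 107 further autophagy and lysosome genes were tested, of which 40 (38.1%) were called higher and 8 (7.62%) lower in hypoxia, beside 19.5% and 20.3% of all tested genes. With 32-134D 32 (30.5%) were called lower and 6 (5.71%) higher, beside 13.7% and 16.2% of all tested genes. Of 14 cargo receptors 10 were called higher in hypoxia and 9 lower with 32-134D, with medians of 1.08 and -0.75. BNIP3, a mitophagy receptor, went from 25.8, 24.2 and 26.7 CPM to 338, 397 and 417 CPM in hypoxia (log2 3.90, SE 0.11, edgeR FDR 2.84e-12) and to 54.6, 53.3 and 44.3 CPM with 32-134D. BNIP3L, its homolog, had log2 fold changes of 3.3 and -2.54.

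Of 22 tested phagophore and regulatory genes 10 (45.5%) were called higher and 2 (9.09%) lower in hypoxia, and 8 (36.4%) lower and 0 higher with 32-134D. Of all tested genes 19.5% were called higher and 20.3% lower in hypoxia, and 13.7% lower and 16.2% higher with 32-134D. ATG9B, the second ATG9 gene, had log2 fold changes of 2.72 and -1.86 at 0.287 to 2.35 CPM, and MAP1LC3B2 of 2.30 and -1.02 at 0.426 to 2.97 CPM. The 32-134D calls of ATG9B (-0.85) and MAP1LC3B2 (-0.66) were lost after thinning all libraries to the smallest. MAP1LC3B2 had 3 to 92 counts per library and shares sequence with MAP1LC3B, and whether reads were misassigned between them was not tested. FOXO3, a transcription factor of autophagy genes, had 1.61 and -1.09. DEPP1 (-0.66) and TP53INP1 (-0.63), which binds ATG8 proteins, were the 2 called lower in hypoxia, and the call of DEPP1 was lost without vehicle 1% O2 replicate 1 (-0.59) or 3 (-0.61) or without vehicle 20% O2 replicate 3 (-0.54).

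The fusion and lysosome genes had medians of 0.30 and 0.26 in hypoxia and of -0.32 and -0.28 with 32-134D. Of 19 fusion genes 5 were called higher and 1 lower in hypoxia, and 3 lower and 1 higher with 32-134D. The 26.3% called higher in hypoxia and 15.8% called lower with 32-134D lay near the 26.2% and 18.6% of genes in the range of levels given above. Fusion genes called the other way were scarcer. They were 5.26% lower in hypoxia and 5.26% higher with 32-134D, beside 23.8% and 19.3% of the genes in that range. RILP, a RAB7 effector, had log2 fold changes of 1.09 and -1.08, whereas TECPR1, a tether at the lysosome, had -1.47 and 1.14. Of 50 lysosome genes 15 were called higher and 5 lower in hypoxia, and 12 lower and 5 higher with 32-134D. Their 30% higher in hypoxia and 24% lower with 32-134D were likewise close to the 26.2% and 18.6%. The 10% lower in hypoxia and 10% higher with 32-134D lay below the 23.8% and 19.3%. NPC1, the cholesterol exporter, had 1.49 and -0.95 and the protease CTSL 0.99 and -0.99, whereas NAGLU and SGSH, both enzymes of heparan sulfate degradation, had -1.75 and -1.30 in hypoxia and 1.29 and 0.96 with 32-134D. ATP6V0D2, a proton pump subunit, was called higher in hypoxia at under 1 CPM (1.33, SE 0.49, edgeR FDR 0.0324), and this call was lost when either of vehicle 1% O2 replicates 1 (1.16) and 2 (1.30), vehicle 20% O2 replicates 2 (1.27) and 3 (0.88), or 32-134D replicate 1 (1.28) was left out.

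**Figure D4:**
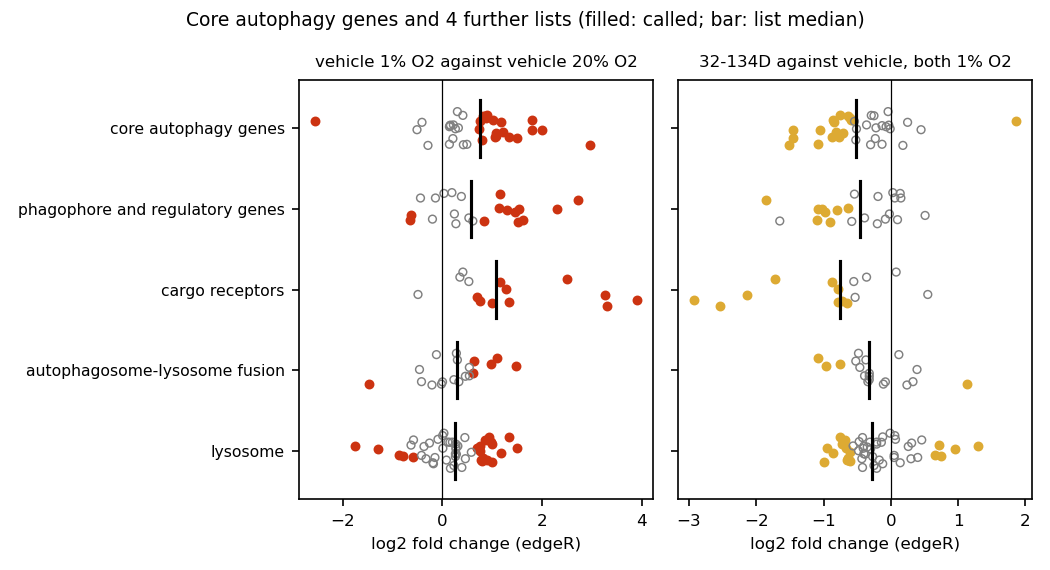
Log2 fold change (x axis) of each gene of the core machinery and of 4 further lists (y axis) in hypoxia (left) and with 32-134D (right); filled points are called and black bars are list medians. The medians in hypoxia were 0.76 for the core genes, 0.57 for phagophore and regulatory genes, 1.08 for cargo receptors, 0.30 for fusion genes and 0.26 for lysosome genes.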

How the data were processed

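RNA was sequenced from 9 Hep3B cultures, 3 per group, which the paper calls biological replicates, and p-values measure the spread between these cultures. The deposited data are raw read counts for each Ensembl gene on GRCh38, made by the authors with STAR and featureCounts. Tool versions and the strand setting are not given in the sources used here. All columns were matched to samples by name, 0 were left unmapped, and no gene row was blank. Replicate pairs differed by more than counting error (chi-square per degree of freedom 1.64 to 40.5).

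Genes with summed counts of at least 10 were tested with edgeR 4.0.16 (R 4.3.3; TMM scaling, quasi-likelihood test, all 9 libraries in 1 fit, no block, Benjamini-Hochberg over 22672 genes). Calls needed FDR below 0.05 and a fold change above 1.5. Standard errors are the log2 fold change over the square root of F. CPM are TMM-scaled, and FPKM divide CPM by the exon union of GENCODE 29, which also gave positions on GRCh38. Paralog ratios used counts plus 0.5 and exact permutation tests. DESeq2 1.42.0, other scalings, filters, thresholds, samples in the fit, thinning, gene classes, length and GC trends, a replicate block and each library left out were alternatives. Libraries held 6013980 to 40549699 counts, and shallow libraries limit the scarce genes ULK2, ATG16L2 and MAP1LC3A.

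The members and the lists were chosen with earlier results of these data known. All 35 members are named, and from each further list the 2 genes with the largest called increase and decrease in the hypoxia and 32-134D comparisons, with marker genes that check the labels. A gene that this rule names is not reported here. RUBCNL and TFEC had too few counts to be tested.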

Additional observations from a re-analysis of the deposited data

How the results depend on the processing

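Fold changes of called members kept their direction in hypoxia and with 32-134D under all alternatives run, and the counts of calls moved with the threshold. With the fold threshold at 2, 12 members were called higher in hypoxia and 5 lower with 32-134D, and 1 higher and 0 lower for 32-134D against vehicle at 20% O2. The further lists then had 21 higher and 3 lower in hypoxia, 2 higher and 9 lower with 32-134D, and 1 higher in the third comparison. With no fold threshold, 4 members were lower in hypoxia, 2 higher with 32-134D and 11 higher in the third comparison, and the further lists had 62 higher and 17 lower in hypoxia, 15 higher and 64 lower with 32-134D, and 21 higher and 3 lower in the third. The members called lower in hypoxia were 2 with at least 10 counts in every library, with protein-coding genes only and after thinning, and 3 with scaling by total counts, which also gave 2 members higher with 32-134D. That scaling gave 15 further genes lower in hypoxia and 10 higher and 18 lower with 32-134D, and a minimum of 10 counts in every library gave 20 lower. Leaving out single libraries gave 19 to 19 members higher and 1 to 2 lower in hypoxia, 12 to 17 lower with 32-134D, and 0 to 1 lower in the third comparison. The causes were not tested.

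The sign of some uncalled values turned. With 32-134D, DESeq2 and RLE size factors gave ULK1 0.05, PIK3R4 0.03 and UVRAG 0.02, and a minimum of 10 counts gave 0.08, 0.07 and 0.06 with ATG7 at 0.02. The 2 groups alone gave 0.06, 0.04 and 0.03, protein-coding genes 0.05, 0.04 and 0.02, and thinning gave ULK1 0.07, PIK3R4 0.02, ATG7 0.00448 and ATP6V0D2 0.52. Scaling by total counts gave, with 32-134D, ULK1 0.18, ATG13 0.06, BECN1 0.06, PIK3R4 0.16, UVRAG 0.15, ATG7 0.11 and ATP6V0D2 0.06, and in hypoxia ATG13 -0.08, BECN1 -0.07, PIK3R4 -0.05, WIPI1 -0.00208 and ATG7 -0.07. Removing length and GC trends gave, in hypoxia, PIK3R4 -0.05, ATG2B 0.0066, WIPI1 -0.04, ATG10 -0.00818, ATG4A -0.06 and ATG4C -0.10, with 32-134D PIK3R4 0.09, ATG2B -0.20, ATG4A 0.04, ATG4C 0.03 and ATP6V0D2 0.13, and OPTN -0.06 in the third comparison. Without single libraries, values with 32-134D ranged from -0.22 to 0.16 for ULK1, -0.03 to 0.04 for PIK3R4, -0.09 to 0.06 for UVRAG, -0.14 to 0.00972 for ATG7, -0.28 to 0.07 for ATP6V0D2 and -0.02 to 0.36 for DEPP1, and OPTN in the third comparison from -0.04 to 0.16. The ratio ULK1 to ULK2 in hypoxia, -0.10, was 0.04 with a prior count of 2 and 0.10 after thinning, and MAP1LC3A to MAP1LC3B, 0.08, was -0.03 with that prior. Without single libraries these ranged from -0.38 to 0.07 and -0.08 to 0.24, ATG2A to ATG2B in the third comparison from -0.08 to 0.18, and TFEB to TFE3 with 32-134D from -0.17 to 0.02.

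The ATG8 shares, for which thinning, transcript length and leaving out libraries were chosen after seeing the data, moved modestly. By the length of the longest transcript, MAP1LC3B had 25.7%, 33.5% and 33.3% in the respective groups, GABARAP 37.8% with 32-134D, GABARAPL1 20.5% with vehicle at 1% O2 and 13.1% with 32-134D, GABARAPL2 17.9% with vehicle at 20% O2 and 14.4% with 32-134D, and MAP1LC3A 2.02% with vehicle at 1% O2. Thinning gave MAP1LC3A 2.91% and MAP1LC3B 27.2% with vehicle at 1% O2, GABARAP 40.6% with 32-134D and GABARAPL2 18.4% with vehicle at 20% O2. Same-numbered replicates showed no shared deviation between groups over the genes tested (correlations from -0.0322 to 0.00525). Whether same-numbered cultures were handled together is not given in the labels, and these correlations cannot exclude it. With a replicate block, 19 members were called higher and 1 lower in hypoxia, 16 lower and 1 higher with 32-134D, and 3 higher and 1 lower in the third comparison. These are the counts found without the block, which changed the call of no member and of ATP6V0D2 in hypoxia (1.19) among the further genes named.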
